A study of Mus musculus with 15 samples.

Results

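The respiratory chain subunits are the proteins of complexes I to V of the inner mitochondrial membrane, and they are encoded by both the nuclear and the mitochondrial genome. Members were the protein-coding genes whose mouse symbol begins with Nduf, Uqcr, Atp5, Cox4, Cox5, Cox6, Cox7, Cox8 or mt-, together with Sdha, Sdhb, Sdhc, Sdhd and Cyc1. This gave 108 of the 55421 genes counted, of which 95 are nuclear and 13 mitochondrial. The nuclear members comprise 36 subunits of complex I, 4 of complex II, 9 of complex III, 20 of complex IV and 18 of complex V, plus 8 Ndufaf genes, which code for assembly factors of complex I and not for subunits. The mitochondrial members comprise 7 genes of complex I, 1 of complex III, 3 of complex IV and 2 of complex V.

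RNA was sequenced from CD4+ T cells that had been recovered from spleen and mesenteric lymph node (mLN) of Rag2-/- recipients, which have no T or B cells of their own, 6 weeks after the transfer of naive T cells in a model of colitis. Donor cells carried the floxed allele of Prkaa1, which encodes the catalytic AMPKα1 subunit, in all groups (PRKAA1fl/fl, strain C57BL/6), and KO donors also carried CD4-Cre, which acts from the thymic stage at which T cells express both CD4 and CD8. The groups were WT spleen (4 samples), KO spleen (4), WT mLN (3) and KO mLN (4). The labels number the samples of a group but do not say which came from the same mouse, so p-values measure the spread between these samples.

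In the chain, complex I takes electrons from NADH and complex II takes them from succinate, complex III passes them from ubiquinol to cytochrome c, complex IV passes them on to oxygen, and complex V uses the proton gradient built on the way to make ATP. Complex II is made entirely of nuclear-encoded proteins, whereas the other complexes need subunits from both genomes. Mitochondrial genes are copied as long transcripts from both strands of a small circular DNA, and nuclear subunits are transcribed gene by gene and imported. Activated T cells use oxidative phosphorylation beside glycolysis, and AMPK is a kinase that senses a low energy state, and the study compared the transcriptomes of T cells with and without AMPKα1 to find cellular processes that limit their expansion.

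Each sample had 9363940 to 11283439 reads on genes, and nuclear members took 0.986% to 1.36% of them and mitochondrial members 0.491% to 0.733%. Values below are scaled CPM, that is, CPM with library totals adjusted by the TMM method over all 15 samples. Prkaa1 measured 53.4, 48.5, 46.6 and 52.5 scaled CPM in WT spleen and 19.96, 21.2, 18.4 and 20.5 in KO spleen, and 50.9, 60.6 and 51.1 in WT mLN and 25.9, 32.3, 21.4 and 32.3 in KO mLN, without overlap of the genotypes in either organ. Its log2 fold change was -1.33 ± 0.08 (SE) in spleen with an adjusted p of 7.63e-05 and -0.95 ± 0.16 in mLN with an adjusted p of 0.037 by edgeR. The mLN call did not hold when any 1 sample was left out (adjusted p from 0.053 to 0.16). The 7 markers of CD4 T cells, all detected, summed to 6118 to 8289 scaled CPM over all samples. Cd4 itself measured 962 to 1140 in WT spleen, 1169 to 1226 in KO spleen, 1007 to 1069 in WT mLN and 1200 to 1302 in KO mLN. It was thus higher in every KO than in every WT sample of the same organ, whereas the other CD4 T cell markers overlapped. Of the CD8 T cell markers, Cd8a measured at most 1.62 scaled CPM in spleen, 0.305 to 8.46 in WT mLN and 16.5 to 23.1 in KO mLN, whereas Cd8b1 overlapped between all groups (1.39 to 7.01 over all samples). The 4 neutrophil markers, all detected, summed to 78.7 to 473 in spleen and to 20.8 to 65.0 in mLN. The 5 erythroid markers, all detected, summed to 1851 and 850.4 in WT spleen replicates 3 and 4 and to 803 in WT mLN replicate 4, against at most 116 in the other samples. Natural killer cell markers (3 of 3 detected) summed to 43.1 to 71.8 in the WT samples and to 74.9 to 122 in the KO samples. Most of that sum was Eomes, which T cells also express, at 36.2 to 68.0 in WT spleen, 78.2 to 103 in KO spleen, 30.7 to 46.2 in WT mLN and 68.3 to 118 in KO mLN. Klrb1c went the other way in mLN, with 1.61 to 5.21 in KO and 5.47 to 11.9 in WT, and Ncr1 did not exceed 8.37. Malat1 and Neat1, nuclear RNAs, summed to 6768 to 7435 in WT spleen, 7838 to 9236 in KO spleen and 5916 to 7307 in mLN. The part of these values in the results below was not tested. The 8 macrophage markers summed to 109.8 to 207 in WT spleen, 134 to 408 in KO spleen and 42.2 to 239 in mLN. C1qb measured 2.68 to 7.89 in WT spleen and 12.5 to 41.2 in KO spleen, and Csf1r 13.3 to 23.8 and 25.5 to 55.5. C1qa and C1qc were also higher in every KO spleen sample, and the other macrophage markers overlapped there. The 5 dendritic cell markers summed to 18.5 to 36.3 over all samples, and only Clec9a did not exceed 3 counts in any library. The part of these markers in the results was not tested. In bulk RNA, fewer cells of a type and less RNA per cell cannot be told apart.

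Of the 108 members, 94 passed the filter on low counts in each comparison of 2 groups and 14 did not. The 14 were 5 mitochondrial genes (mt-Co2, mt-Co3, mt-Atp6, mt-Atp8 and mt-Nd4l) and a second gene entry named Atp5o, all with a count of 0 in every library, and 8 isoforms known mainly from other tissues. Those were Cox4i2, Cox6a2, Cox6b2, Cox7a1, Cox7b2, Cox8b, Cox8c and Ndufa4l2, and none exceeded 2.76 scaled CPM in any sample. Cox8b, the heart and muscle form, was at 0 throughout, and a count of 3 per library was taken as the floor below which no level was read. Their widely expressed partners were all measured: per kilobase of exon, the mean over the 15 samples was 299 scaled CPM for Cox4i1, 322 for Cox6a1, 235 for Cox6b1, 131 for Cox7a2, 93.8 for Cox7b, 278 for Cox8a and 111 for Ndufa4. The second Atp5o entry (chr16:91684398-91926982, GRCm38) overlaps the main Atp5o gene.

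For 4 of the 5 mitochondrial genes at 0, an annotated nuclear gene holds the sequence as well. On chromosome 1 the annotation holds pseudogenes that copy mt-Co2, mt-Co3, mt-Atp6 and mt-Nd4l without a single difference over the aligned bases, and reads that fit more than 1 place were not counted. Of the 75-base windows of each gene, the length of a read, 99.9% of mt-Co3, 99.5% of mt-Co2, 99.5% of mt-Atp6, 98.7% of mt-Nd4l and 97.8% of mt-Nd3 also occurred in another gene, as did 61.5% of mt-Nd4, 39.8% of mt-Co1, 5.71% of mt-Nd2 and 1.66% of mt-Nd5. For mt-Nd1, mt-Cytb and mt-Nd6 no window was shared. For mt-Atp8 none was shared either, but only annotated genes were searched. Its short frame (chrM:7766-7969) follows that of mt-Co2 and overlaps the start of mt-Atp6 (chrM:7927-8607). The copies of mt-Co2 and mt-Atp6 are neighbours on chromosome 1, and the stretch between these copies was not searched. The part of the overlap in the count of 0 for mt-Atp8 was not tested. The first 75 bases of mt-Co2 and of its copy show why a read from either could not be placed, and those of mt-Nd3 and its copy, which differ by 1 base over this stretch (in capitals), show what a read needs to be counted. They are written 5′ to 3′ on the coding strand in GRCm38, from chrM:7013-7087 (plus), chr1:24615491-24615565 (minus), chrM:9459-9533 (plus) and chr1:24613045-24613119 (minus).
mt-Co2: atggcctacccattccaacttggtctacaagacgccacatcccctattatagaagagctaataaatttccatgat
Gm28661: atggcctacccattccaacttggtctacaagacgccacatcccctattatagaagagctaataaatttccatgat
mt-Nd3: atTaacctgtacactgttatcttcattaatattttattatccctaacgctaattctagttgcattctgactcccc
Gm28438: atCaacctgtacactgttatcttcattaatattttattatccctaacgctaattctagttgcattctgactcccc
In all, mt-Nd3 collected 212 reads over the 15 libraries. Its copy aligns over 345 of its 348 bases, so these reads need not all rest on that single difference. The counts of mt-Co1, mt-Nd4 and mt-Nd3 are therefore counts of the parts of these genes that a read can be placed in, and their levels understate them against the other genes.

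**Figure D1:**
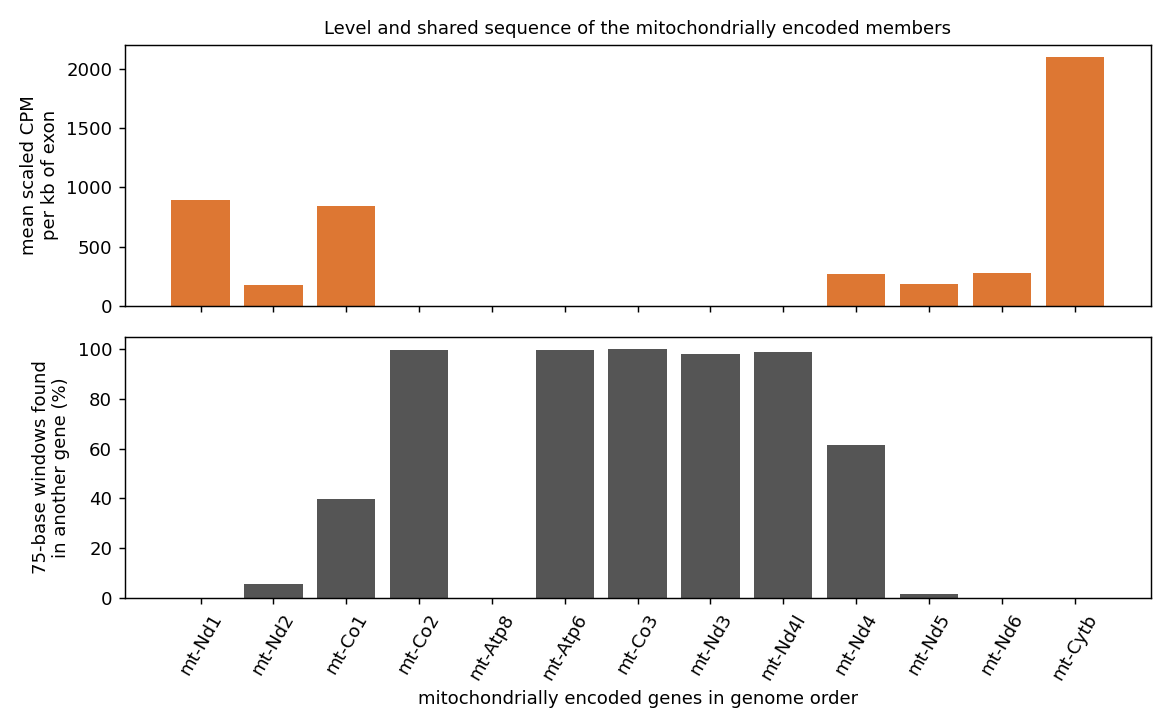
The 13 mitochondrially encoded genes in genome order: mean scaled CPM per kilobase of exon over 15 samples (top) and percent of 75-base windows that also occur in another gene (bottom). Among the genes with no shared window mt-Cytb stands highest, and the genes at 0 have 98.7% or more of their windows shared, except mt-Atp8, for which only annotated genes were searched.

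The 8 mitochondrial members that could be tested were mt-Cytb, mt-Nd1, mt-Co1, mt-Nd6, mt-Nd4, mt-Nd5, mt-Nd2 and mt-Nd3. Levels per kilobase divide the counted reads by the whole exon length, so a gene with shared windows reads too low and the genes at 0 have no place in the order. On this scale mt-Cytb, the electron-carrying cytochrome b of complex III, had the highest level of the members counted at 2097 scaled CPM per kilobase, and mt-Nd1 of complex I stood at 893. Nuclear subunits were led by Cox6a1 at 322 and Cox4i1 at 299, while mt-Nd6 reached 276, mt-Nd5 187 and mt-Nd2 177. mt-Co1, the catalytic subunit of complex IV, measured 844 and mt-Nd4 266 in the part of their length that could be counted. Among the 78 nuclear structural subunits tested, the level per kilobase ran from 3.18 to 322 with a median of 72.2 scaled CPM. The lowest values tested were those of mt-Nd3 at 3.88, of which 97.8% of the windows are shared, and, among nuclear members, Atp5s, a factor that couples the parts of ATP synthase, at 4.15, and Atp5l, subunit g of its membrane part, at 3.18. Atp5l shares 6.16% of its windows with other genes, of which 21 hold at least 1. Of the 95 nuclear members, 41 shared at least 1 window with another gene, and 6 shared at least 25% of their windows. Levels of these nuclear members can thus read too low as well.

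Levels of the catalytic subunits differed widely within a complex. In complex I, Ndufv1, which binds NADH and its flavin, stood at 34.7 scaled CPM per kilobase and Ndufs1, the largest iron-sulfur subunit, at 13.9. In complex II, Sdhb (iron-sulfur subunit) stood at 117, Sdhd (membrane anchor) at 109.7, Sdha (flavoprotein) at 88.3 and Sdhc (the other anchor) at 26.5. In complex III, Uqcrfs1, the Rieske protein, reached 116 and Cyc1, cytochrome c1, 64.98. Atp5a1 and Atp5b, the α and β subunits of the catalytic head of ATP synthase, stood close to each other at 188 and 182.

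Between samples of a group the nuclear members were tight and the mitochondrial ones were not, in WT. The coefficient of variation over the samples of a group had a median of 5.89% over the 86 nuclear members tested in WT spleen, 8.07% in KO spleen, 6.28% in WT mLN and 7.63% in KO mLN. Over the 8 mitochondrial members it was 22.5% in WT spleen and 17.7% in WT mLN, against 5.11% in KO spleen and 7.13% in KO mLN. WT spleen replicate 4 was the highest of its group for 7 of the 8 mitochondrial members and WT mLN replicate 4 for 7 of 8. WT spleen replicate 4 also had the highest sum of neutrophil markers, 473 scaled CPM. Both carried erythroid markers, as did WT spleen replicate 3, whose mitochondrial members summed to 5223 scaled CPM against 7106 in replicate 4, and the part of these markers in the spread was not tested. KO mLN replicate 1 was the highest of its group for 67 of the 86 nuclear members.

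In spleen, no respiratory chain gene differed between KO and WT past the threshold. edgeR's quasi-likelihood test called 0 of the 94 members at an adjusted p under 0.05, against 1.3% of the 14254 genes tested. DESeq2 called 0 as well, against 2.27% of the 35256 genes with a read. An unadjusted p under 0.05 was found for 11 of the 94 members, and for 20.5% of all genes tested. Log2 fold changes ran from -0.21 to 0.27 for the 78 nuclear structural subunits (median 0.07) and from -0.35 to -0.05 for the 8 mitochondrial members (median -0.22), with a median of 0.00 over all genes tested. Samples of KO and WT did not overlap for 3 members with higher values in KO (Ndufa2, Ndufa4 and Ndufa5, the last named after its values were seen), where the rate over all genes was 5.9%, and for Ndufv1 with lower values, where it was 6.13%.

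The 3 members with the smallest p in spleen are subunits of complexes I and IV. Ndufv1 measured 89.04, 93.99, 89.9 and 91.1 scaled CPM in the WT samples and 82.7, 76.2, 81.5 and 74.7 in KO, a log2 fold change of -0.21 ± 0.06 (SE) with an adjusted p of 0.1 by edgeR. Ndufa4, which was long counted to complex I and belongs to complex IV, measured 117, 121, 148 and 135 in WT and 156, 149.6, 158 and 168 in KO, a log2 fold change of 0.27 ± 0.08 with an adjusted p of 0.11. Every KO value of Ndufv1 lay below, and every KO value of Ndufa4 above, the WT values. Ndufa2, an accessory subunit of complex I, had a log2 fold change of 0.22 ± 0.08 with an adjusted p of 0.15. Without WT spleen replicate 3, Ndufa4 passed the threshold at a log2 fold change of 0.34 with an adjusted p of 0.0498. Sdha, the flavoprotein of complex II, had the lowest value of its complex at -0.14 ± 0.07 with an adjusted p of 0.27.

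All 8 mitochondrial members had log2 fold changes below 0 in spleen, and WT spleen replicate 4 carried much of this. mt-Nd1 measured 748, 708, 767 and 1123 scaled CPM in WT and 715, 629, 671 and 620.2 in KO, a log2 fold change of -0.35 ± 0.14 with an adjusted p of 0.19. The fourth of the WT values is replicate 4, and without it the log2 fold change was -0.17. The mitochondrial sum, that is, the scaled CPM of all mitochondrial members added up, measured 5481, 4739, 5223 and 7106 in WT and 5107, 4831, 5349 and 5091 in KO. Its log2 difference was -0.13 with a pooled SD of 0.18 (n = 4 and 4), and -0.01 without WT spleen replicate 4. The sum over the nuclear structural subunits differed by 0.06 with a pooled SD of 0.07. Both differences were smaller than the spread between samples.

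In mLN, too, no member passed the threshold between KO and WT. edgeR called 0 of 94 members against 0.641% of the 14359 genes tested, and an unadjusted p under 0.05 was found for 9 members and for 15.7% of all genes tested. DESeq2 called 2 members lower, mt-Nd5 and mt-Nd6, where it called 0.828% of the 33681 genes with a read lower. edgeR called mt-Nd5 alone when all 15 samples shared 1 fit, which called 1.88% of genes tested lower. Log2 fold changes ran from -0.30 to 0.41 for the nuclear structural subunits (median -0.01) and from -0.52 to 0.16 for the mitochondrial members (median -0.13), with a median of 0.00 over all genes tested. KO and WT samples did not overlap for 8 members with lower values in KO and for 4 with higher values (Ndufab1, Ndufa4, Ndufb8 and Cox6c, the last pair named after their values were seen), where the rates over all genes tested were 7.37% and 6.62%.

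mt-Nd5 and mt-Nd6, 2 membrane subunits of complex I, had the smallest p in mLN and lie next to each other on opposite strands. mt-Nd5 measured 398, 331 and 476 scaled CPM in WT and 282, 283, 304 and 253 in KO, a log2 fold change of -0.52 ± 0.12 (SE) with an adjusted p of 0.078 by edgeR. mt-Nd6 measured 149, 122 and 196 in WT and 108, 113, 116 and 99.03 in KO, a log2 fold change of -0.51 ± 0.14 with an adjusted p of 0.13. For both genes every KO value lay below every WT value. Under DESeq2 the adjusted p was 0.0026 for mt-Nd5 and 0.022 for mt-Nd6. Without WT mLN replicate 4, the highest sample, edgeR gave log2 fold changes of -0.38 for mt-Nd5 and -0.32 for mt-Nd6. In spleen the log2 fold changes were -0.28 ± 0.13 for mt-Nd5 with an adjusted p of 0.24 and -0.29 ± 0.14 for mt-Nd6 with an adjusted p of 0.28. The library kit does not mark strand, and 336 of 477 genes whose exons lie wholly inside exons of the other strand still had reads, so reads appear to have been counted by the strand on which they aligned. mt-Nd6 (chrM:13552-14070, minus strand, GRCm38) thus cannot be told apart from RNA of the opposite strand, which runs on from mt-Nd5 (chrM:11742-13565, plus strand).

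Of the other members in mLN, Ndufab1, the mitochondrial acyl carrier protein, measured 34.5, 28.6 and 29.3 scaled CPM in WT and 34.9, 44.1, 40.4 and 44.99 in KO, a log2 fold change of 0.41 ± 0.14 with an adjusted p of 0.2. Ndufa4 measured 139.9, 151 and 152 in WT and 184, 155, 181 and 176 in KO, a log2 fold change of 0.23 ± 0.09 with an adjusted p of 0.26, and Ndufv1 had one of -0.30 ± 0.13 with an adjusted p of 0.28. KO samples thus lay above WT samples for Ndufa4 in both organs, whereas for Ndufv1 they overlapped in mLN. The mitochondrial sum differed by -0.05 on the log2 scale with a pooled SD of 0.13 (n = 3 and 4), and the nuclear sum by 0.00 with a pooled SD of 0.07.

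The genotype by organ interaction, which tests whether the KO against WT difference is unlike in the 2 organs, called 0 of 96 members and 0 of 15438 genes (0%) by edgeR. Of the members 1 had an unadjusted p under 0.05 (Ndufa8, named after its values were seen, at -0.22 ± 0.10), and of all genes 652 had (4.22%). DESeq2 called 2 genes and no member. With the replicate number as a block, which was not taken to pair the KO samples, edgeR called 3 genes (0.0194%) and no member. In that fit 3 members and 833 genes had an unadjusted p under 0.05.

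**Figure D2:**
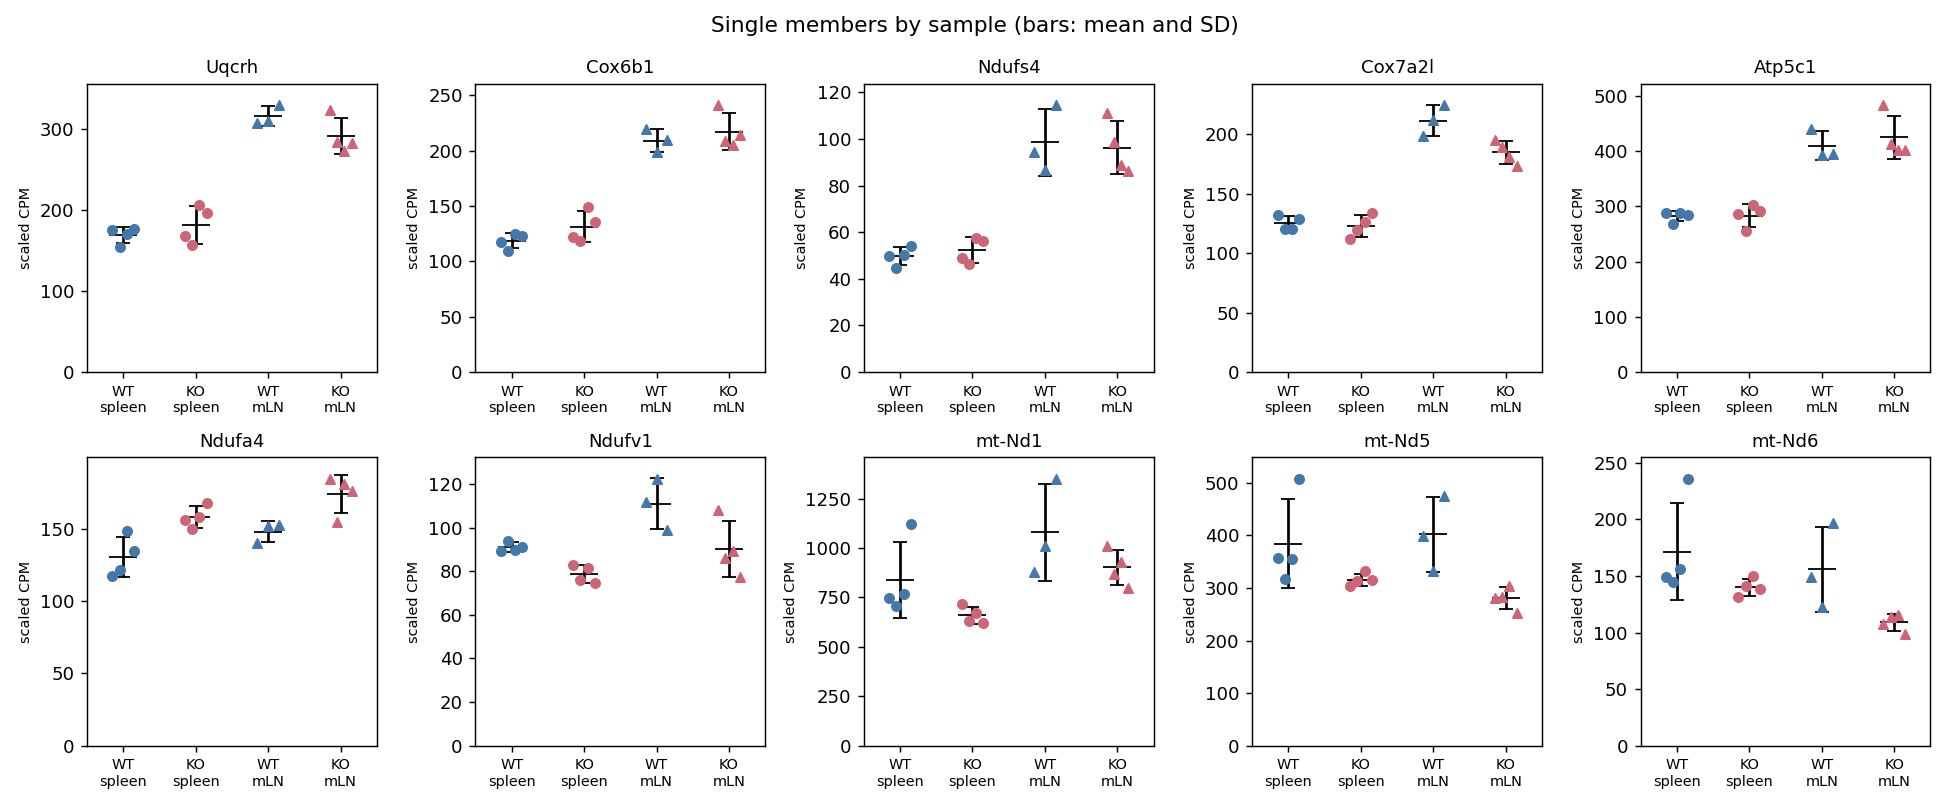
Scaled CPM of 10 members in each sample, by group (circles spleen, triangles mLN, blue WT, red KO; bars mean and SD). The upper row shows genes higher in every mLN sample than in every spleen sample of the same genotype. In the lower row WT spleen and WT mLN replicates 4 stand out for the mitochondrial genes.

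Between the organs, members from complexes I to V were called higher in mLN than in spleen in both genotypes. In WT cells, 53 of the 94 members were higher in mLN than in spleen and 0 were lower, where 9.7% of the 14515 genes tested were called higher and 10.8% lower. In KO cells 48 were higher and 1 was lower, where 11.8% of the 14240 genes tested were called higher and 13.7% lower. With the replicate number as a block, 64 were higher and 0 lower in WT, where 14.6% and 15.3% of genes were. All 53 members called in WT and 47 of the 48 in KO are nuclear, as are 86 of the 94 members tested. Of the members called higher, 44 were shared, which is 83.0% of the WT and 91.7% of the KO calls, and the 2 comparisons share no samples. Shared calls were not counted over all genes, so there is no rate to set beside these percentages. The differences were moderate: the median log2 fold change over the 78 nuclear structural subunits was 0.36 in WT and 0.30 in KO, with medians of 0.00 and 0.01 over all genes tested, and no member passed an absolute log2 fold change of 1, which 4.98% and 5.37% of all genes tested passed together with the limit on the adjusted p. In WT, all 78 nuclear structural subunits had log2 fold changes above 0, from 0.02 to 0.98, and in KO 77 of 78 did. The exception in KO was Ndufa5, named after its values were seen, at -0.22 ± 0.09 with an adjusted p of 0.088.

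mLN samples lay above all spleen samples for 64 members in WT and for 54 in KO, where the rates over all genes tested were 16.1% and 14.2%. The levels of Cd8a and of the neutrophil markers in the organs are given above, and their part in the organ difference was not tested. Across all genes, log2 fold changes were lower for longer genes (Spearman's rho over genes -0.25 in WT and -0.21 in KO, genes not being independent), and the subunits are short, with a median exonic length of 1737 bases against 3495 over all protein-coding genes. When each sample's smooth trend on exonic length and GC content was taken out, a fit added after the data were seen, 46 members were called higher in WT, against 12.7% of genes, and 49 in KO, against 15.9%. The median of the nuclear structural subunits was then 0.34 and 0.29, beside 0.08 and 0.09 over all genes tested. Over all genes, this fit called 1839 higher and 968 lower in WT, where the plain fit called 1408 and 1572, and 2258 and 1269 in KO, where the plain fit called 1680 and 1945.

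**Figure D3:**
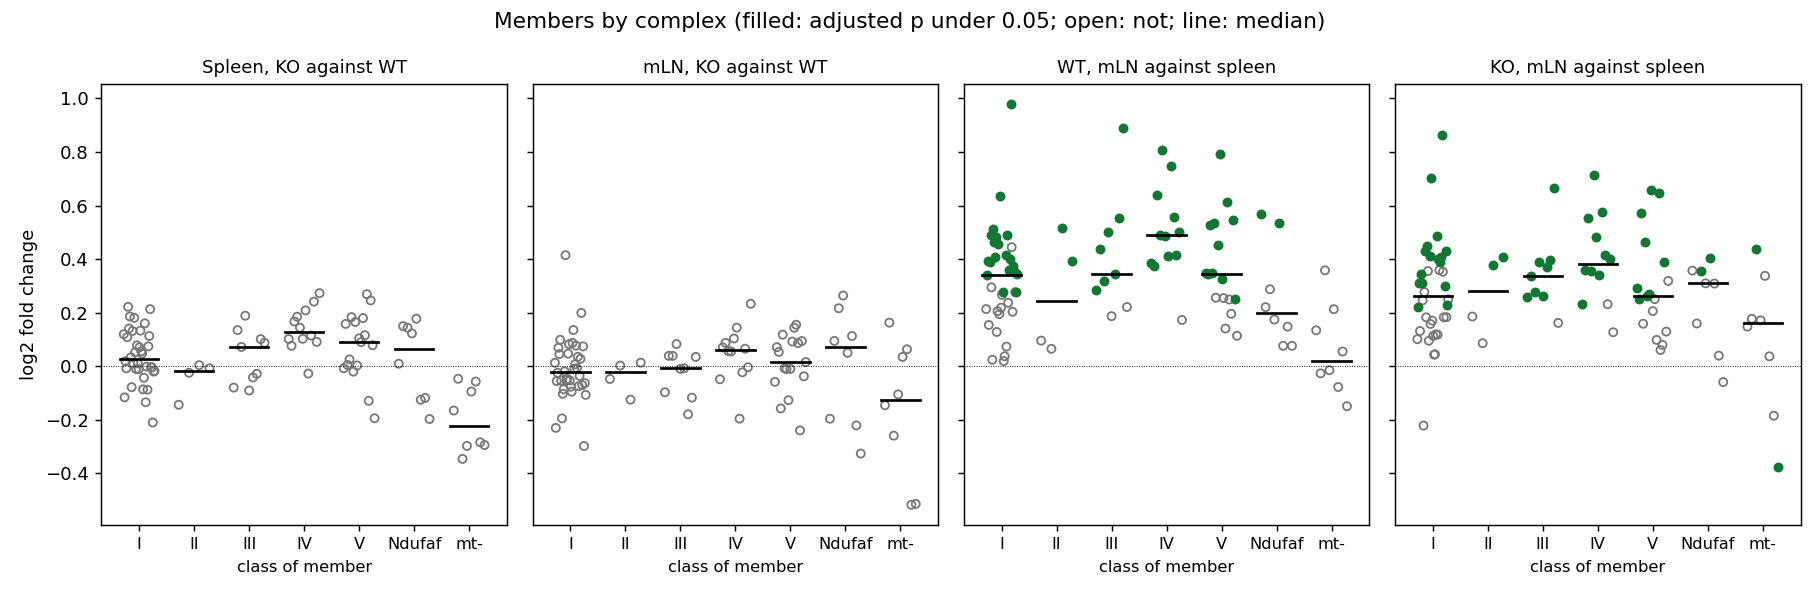
Log2 fold change of each tested member in the 4 comparisons, by nuclear complex, Ndufaf assembly factors and mitochondrial genes (mt-); filled points have an adjusted p under 0.05 and lines are medians. No point is filled for KO against WT, and in mLN against spleen the filled points lie above 0 in complexes I to V, with mt-Nd6 in KO the only one below 0.

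In complex IV, cytochrome c oxidase, 11 of the 12 nuclear subunits tested were higher in mLN in WT and 10 in KO, with median log2 fold changes of 0.49 and 0.38. Cox6b1 measured 117, 109.6, 125 and 123 scaled CPM in the WT spleen samples, 122, 119, 149 and 136 in KO spleen, 219.6, 198 and 209.7 in WT mLN and 241, 209, 205 and 214 in KO mLN. Cox6b1, a small subunit on the side of cytochrome c, was higher in every mLN sample than in every spleen sample, by a log2 fold change of 0.81 ± 0.08 (SE) in WT with an adjusted p of 3.58e-04 and of 0.71 ± 0.09 in KO with an adjusted p of 1.65e-04. Cox7a2l measured 132, 120.00, 119.9 and 129 scaled CPM in the WT spleen samples, 112, 119.8, 127 and 134 in KO spleen, 198, 212 and 225 in WT mLN and 195, 189, 181 and 173 in KO mLN. Cox7a2l was higher by a log2 fold change of 0.75 ± 0.08 (SE) in WT with an adjusted p of 5.37e-04 and of 0.57 ± 0.07 in KO with an adjusted p of 2.30e-04. Its mLN and spleen values did not overlap in either genotype. Cox5b, a zinc-binding subunit, was higher by 0.64 ± 0.09 in WT with an adjusted p of 0.0018 and by 0.55 ± 0.08 in KO with an adjusted p of 7.18e-04. Cox7b was higher by 0.56 and 0.42, Cox8a by 0.50 and 0.40, Cox6a1 by 0.49 and 0.36, Cox7a2 by 0.41 and 0.34, and Cox4i1, the subunit through which ATP regulates the enzyme, by 0.39 and 0.23 in WT and KO. Ndufa4 was the member that did not pass in either genotype, at 0.17 ± 0.10 with an adjusted p of 0.25 and 0.13 ± 0.07 with an adjusted p of 0.23, and Cox7c, chosen for mention after its values were seen, did not in KO. The Cox4i1 call in KO was lost without KO spleen replicate 1 or 2 or KO mLN replicate 1 (adjusted p from 0.061 to 0.097) and with no filter on low counts (0.084).

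In complex III, 7 of 9 nuclear subunits were higher in mLN in WT and 8 in KO, with medians of 0.34 in both. Uqcrh measured 175, 154, 171 and 176 scaled CPM in the WT spleen samples, 167, 157, 206 and 196 in KO spleen, 308, 309 and 329 in WT mLN and 323, 284, 273 and 283 in KO mLN. Uqcrh, the hinge protein at which cytochrome c docks, was higher by a log2 fold change of 0.89 ± 0.08 (SE) in WT with an adjusted p of 2.61e-04 and of 0.67 ± 0.09 in KO with an adjusted p of 4.30e-04. Uqcrfs1 measured 133, 145, 129.7 and 133 scaled CPM in the WT spleen samples, 131, 132, 131 and 136 in KO spleen, 209, 195 and 196 in WT mLN and 186, 176, 175 and 169 in KO mLN. Uqcrfs1, whose iron-sulfur center takes the first electron from ubiquinol, was higher by a log2 fold change of 0.55 ± 0.07 (SE) in WT with an adjusted p of 0.0014 and of 0.40 ± 0.06 in KO with an adjusted p of 7.90e-04. Cyc1, the next carrier, was higher by 0.28 and 0.26 with adjusted p of 0.022 and 0.017. The subunits that did not pass were Uqcrq in both genotypes and the core protein Uqcrc1 in WT, both named after their values were seen. The Cyc1 call was lost in WT without WT spleen replicate 2 or WT mLN replicate 1 or 4 (adjusted p from 0.051 to 0.070) and in KO without KO spleen replicate 1 (0.068), and with no filter on low counts in both (0.084 and 0.076).

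In complex I, 20 of 36 nuclear subunits were higher in mLN in WT and 16 in KO, with medians of 0.34 and 0.26, and none was lower. Ndufs4 measured 49.7, 44.6, 50.2 and 54.05 scaled CPM in the WT spleen samples, 48.9, 46.5, 57.6 and 56.2 in KO spleen, 94.5, 86.8 and 115 in WT mLN and 111, 98.5, 88.8 and 86.04 in KO mLN. Ndufs4, an accessory subunit whose loss causes a Leigh-like disease in mice and humans, had the largest log2 fold change of the tested members in both genotypes and was higher by a log2 fold change of 0.98 ± 0.11 (SE) in WT with an adjusted p of 7.22e-04 and of 0.86 ± 0.11 in KO with an adjusted p of 1.70e-04. Ndufb3, an accessory subunit of the membrane arm, measured 37.05, 32.7, 41.6 and 34.6 scaled CPM in WT spleen and 55.8, 60.9 and 54.5 in WT mLN, and was higher by 0.64 in WT with an adjusted p of 0.0038 and by 0.70 in KO with an adjusted p of 3.18e-04. Of the 7 nuclear core subunits, which carry the electron path, 5 were higher in each genotype. Among them Ndufs8, which binds iron-sulfur clusters, was higher by 0.36 and 0.43 with adjusted p of 0.026 and 0.0013. The other 2 were Ndufv1, at 0.28 ± 0.09 with an adjusted p of 0.055 in WT and 0.18 ± 0.10 with an adjusted p of 0.22 in KO, and Ndufs1, at 0.24 ± 0.08 with an adjusted p of 0.078 and 0.36 ± 0.13 with an adjusted p of 0.063. With the replicate number as a block, Ndufv1 passed in WT at 0.27 with an adjusted p of 0.037. Without WT mLN replicate 4, Ndufv1 passed in WT at 0.35 with an adjusted p of 0.035 and Ndufs1 at 0.31 with one of 0.043, and Ndufs1 passed in KO without KO mLN replicate 3 (0.0496) or 4 (0.0488). With the trend on length and GC content taken out, Ndufs1 passed in WT at 0.41 with an adjusted p of 0.010 and in KO at 0.49 with one of 0.024. Ndufs1 in KO also passed with DESeq2 (0.038), with the replicate block (0.027), with no filter on low counts (0.0063) and with all 15 samples in 1 fit (0.026). Over all samples left out, its KO value ran from 0.19 to 0.42, with adjusted p from 0.049 to 0.15 by edgeR. KO mLN replicate 1 measured 167 scaled CPM, against 109 to 112 in the other KO mLN samples. For this gene the outcome depends on the setting and on single samples. With the trend taken out Ndufv1 passed in WT at 0.34 with an adjusted p of 0.023. Ndufa6, an accessory subunit, was higher in WT by 0.51 ± 0.07 with an adjusted p of 0.0014 and measured 0.28 ± 0.10 in KO with an adjusted p of 0.068, and the interaction for it was -0.23 ± 0.13 with an adjusted p of 0.9998, so that a difference between the genotypes was not shown. Of the 8 Ndufaf assembly factors, 2 were higher in each genotype, Ndufaf1 and Ndufaf5 in WT and Ndufaf3 and Ndufaf5 in KO, named after their values were seen.

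In complex V, the ATP synthase, 11 of 17 nuclear genes tested were higher in mLN in WT and 9 in KO, with medians of 0.34 and 0.26. All 5 genes of the F1 head and central stalk were higher in WT and 4 of 5 in KO, and all 3 genes of the c ring in WT and 2 of 3 in KO, whereas of the 4 genes of the peripheral stalk 1 was called in each genotype. These were Atp5o in WT at 0.25 ± 0.08 with an adjusted p of 0.049991, at the limit, and Atp5f1 in KO at 0.26 ± 0.07 with an adjusted p of 0.013, both named after their values were seen. Atp5c1 measured 288, 268, 287 and 284 scaled CPM in the WT spleen samples, 286, 254, 301 and 291 in KO spleen, 440.03, 393 and 395 in WT mLN and 483, 413, 401 and 401 in KO mLN. Atp5c1, the γ subunit that turns inside the head, was higher by a log2 fold change of 0.53 ± 0.08 (SE) in WT with an adjusted p of 0.0019 and of 0.57 ± 0.08 in KO with an adjusted p of 4.23e-04. Atp5j2, a small subunit of the membrane part, was higher by 0.61 ± 0.08 in WT with an adjusted p of 0.0013 and by 0.65 ± 0.10 in KO with an adjusted p of 7.70e-04. Atp5a1 of the catalytic pair was higher by 0.35 and 0.29 with adjusted p of 0.0079 and 0.0027, and Atp5b by 0.34 and 0.25 with adjusted p of 0.017 and 0.01. The Atp5b call in WT was lost without WT mLN replicate 1 (adjusted p 0.060) or 4 (0.054). Atp5l and Atp5s did not pass, at 0.20 and 0.11 in WT and 0.08 and 0.32 in KO.

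In complex II the membrane anchors passed the test and the catalytic subunits did not. Sdha in KO lay close to the limit, and the Sdhd call in WT did not hold in every setting. Sdhc measured 69.7, 71.7, 77.3 and 74.9 scaled CPM in the WT spleen samples, 70.8, 72.1, 80.2 and 71.8 in KO spleen, 107, 100.03 and 109 in WT mLN and 106, 101, 82.2 and 97.2 in KO mLN. Sdhc was higher in mLN by a log2 fold change of 0.51 ± 0.08 (SE) in WT with an adjusted p of 0.0026 and of 0.38 ± 0.09 in KO with an adjusted p of 0.01. Sdhd was higher by 0.39 ± 0.08 in WT with an adjusted p of 0.0077 and by 0.41 ± 0.07 in KO with an adjusted p of 0.0018. Sdha measured 374, 351, 351 and 379.9 scaled CPM in the WT spleen samples, 354, 344, 307 and 314 in KO spleen, 381, 376 and 418 in WT mLN and 399.8, 389, 363 and 363 in KO mLN. Sdha and the iron-sulfur subunit Sdhb did not pass the test in either genotype, with log2 fold changes of 0.10 ± 0.08 and 0.06 ± 0.08 in WT with adjusted p of 0.43 and 0.58, and of 0.19 ± 0.07 and 0.09 ± 0.08 in KO with adjusted p of 0.071 and 0.5. Sdha passed in KO with the replicate block (0.19, adjusted p 0.042), with all 15 samples in 1 fit (0.20, adjusted p 0.038) and with the trend on length alone taken out (0.27, adjusted p 0.014). Sdhd in WT was lost with the trend on length and GC content taken out (0.26, adjusted p 0.054). The difference between anchors and catalytic subunits was not itself tested.

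**Figure D4:**
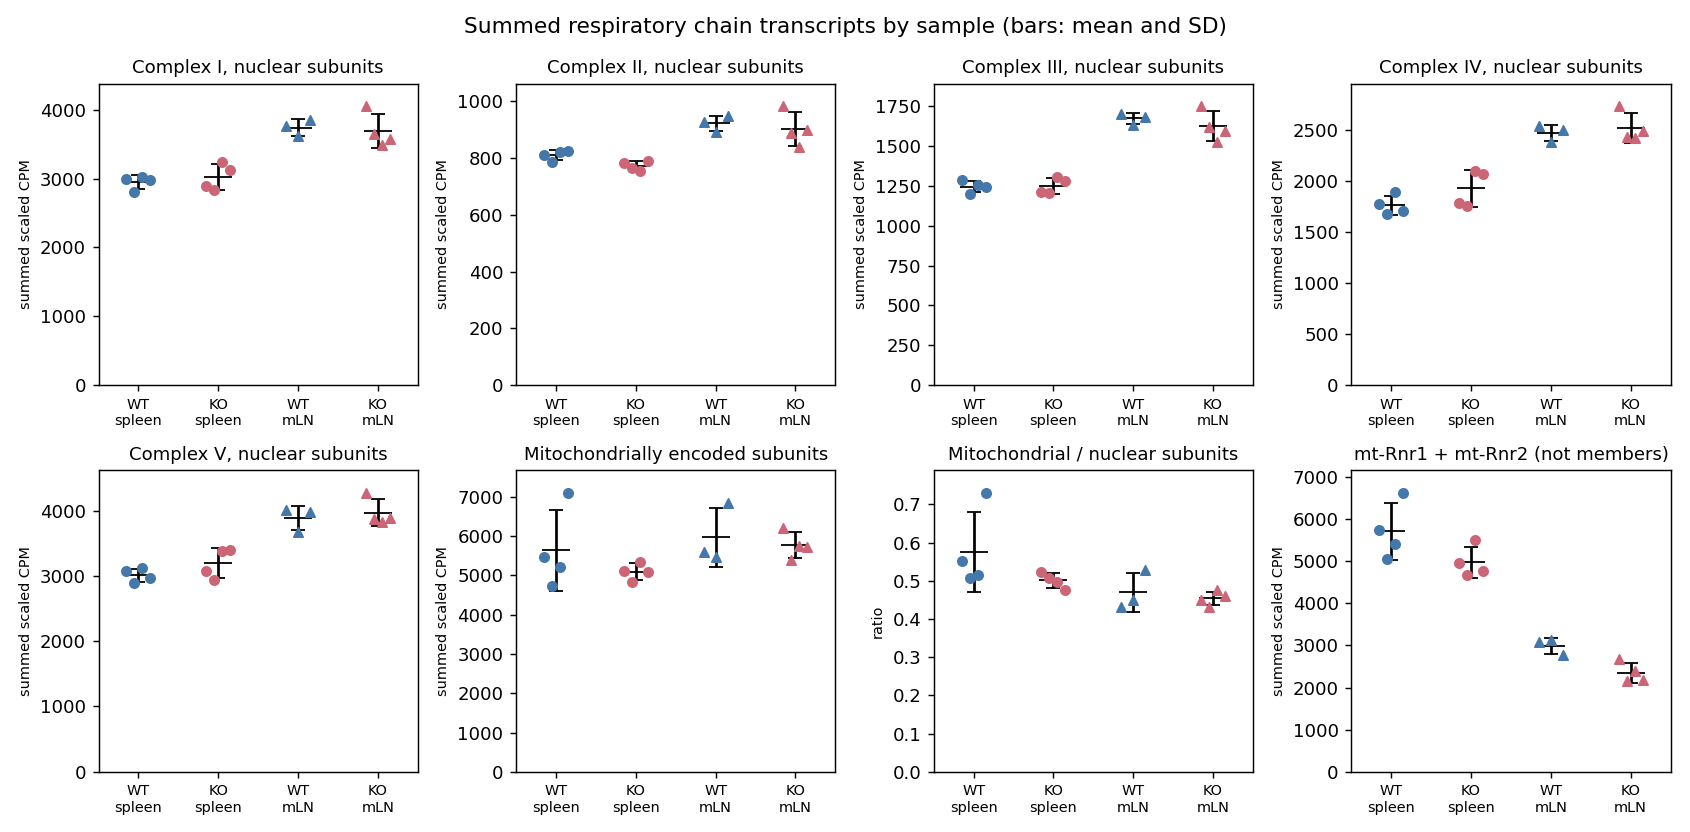
Summed scaled CPM in each sample for the nuclear subunits of complexes I to V and the mitochondrially encoded subunits, the ratio of mitochondrial to nuclear subunits, and the mitochondrial ribosomal RNA, which is no member (circles spleen, triangles mLN, blue WT, red KO; bars mean and SD). Nuclear sums are higher in mLN for every complex, the mitochondrial sum overlaps between the organs in WT, and the ribosomal RNA is lower in mLN.

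The sum of the nuclear structural subunits measured 9933, 9354, 10119.7 and 9725 scaled CPM in WT spleen and 12954, 12201 and 12951 in WT mLN, and 9758, 9509.6, 10788 and 10670.2 in KO spleen and 13809, 12469, 12116 and 12447 in KO mLN. It was higher in mLN than in spleen by a log2 difference of 0.38 in WT (pooled SD 0.05) and by a log2 difference of 0.32 in KO (pooled SD 0.09), without overlap of the samples in either. Among the nuclear complexes, the mean sum went from 1763 to 2475 in WT for complex IV, from 1247 to 1674 for complex III, from 3009 to 3886 for complex V, from 2952 to 3744 for complex I and from 812 to 922 for complex II.

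The sum of the mitochondrial members differed by 0.09 on the log2 scale in WT, less than the pooled SD of 0.22, with 0.21 without WT spleen replicate 4 and -0.01 without WT mLN replicate 4. In KO the mLN values of 6203, 5391, 5753 and 5724 lay above the spleen values of 5107, 4831, 5349 and 5091, a log2 difference of 0.18 with a pooled SD of 0.07. The ratio of the mitochondrial to the nuclear sum was 0.552, 0.507, 0.516 and 0.731 in WT spleen, 0.432, 0.449 and 0.528 in WT mLN, 0.523, 0.508, 0.496 and 0.477 in KO spleen and 0.449, 0.432, 0.475 and 0.460 in KO mLN. It was lower in every KO mLN than in every KO spleen sample (log2 difference -0.14, pooled SD 0.06) and overlapped in WT (-0.28, pooled SD 0.21). The sum counts fewer than all mitochondrial genes, since the copied ones could not be counted.

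Gene by gene, the mitochondrial members went in different directions. In KO, mt-Nd1 was higher in mLN and mt-Nd6 lower, and 6 of the 8 did not pass. mt-Nd1 measured 748, 708, 767 and 1123 scaled CPM in the WT spleen samples, 715, 629, 671 and 620.2 in KO spleen, 878, 1009 and 1349.9 in WT mLN and 1011, 869.95, 928 and 797 in KO mLN. The log2 fold change of mt-Nd1 was 0.44 ± 0.08 in KO with an adjusted p of 0.0027 and 0.36 ± 0.19 in WT with an adjusted p of 0.22. In WT it passed with the replicate number as a block, at 0.33 with an adjusted p of 0.00944, and without WT spleen replicate 4, at 0.53 with an adjusted p of 0.040.

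mt-Nd6 measured 149, 145, 156 and 236 scaled CPM in the WT spleen samples, 131, 141, 149.6 and 139 in KO spleen, 149, 122 and 196 in WT mLN and 108, 113, 116 and 99.03 in KO mLN. Its log2 fold change was -0.38 ± 0.07 in KO with an adjusted p of 0.0038 and -0.15 ± 0.20 in WT with an adjusted p of 0.65. With the trend on length and GC content taken out, the KO value was -0.13 with an adjusted p of 0.27, and in the fit over all 15 samples -0.36 with an adjusted p of 0.089, so the call did not hold in either. mt-Nd5, mt-Nd2, mt-Nd4 and mt-Co1 differed in log2 terms by 0.05, -0.02, -0.08 and 0.13 in WT and by -0.18, 0.17, 0.04 and 0.15 in KO. With that trend taken out, mt-Nd2 and mt-Nd4 passed in KO at 0.33 and 0.21. mt-Cytb measured 2419, 1990.4, 2189.9 and 2833 scaled CPM in the WT spleen samples, 2352, 2183, 2333 and 2271 in KO spleen, 2179.8, 2175 and 2634 in WT mLN and 2863, 2407, 2521 and 2639.6 in KO mLN. The log2 fold changes of mt-Cytb, -0.03 ± 0.13 in WT and 0.18 ± 0.07 in KO, had adjusted p of 0.91 and 0.069. In KO, mt-Cytb passed without KO mLN replicate 2 (0.21, adjusted p 0.045), and mt-Nd2 (0.20, adjusted p 0.041) and mt-Nd5 (-0.23, adjusted p 0.036) without KO mLN replicate 3. mt-Nd3, with at most 2.23 scaled CPM, had log2 fold changes of 0.21 ± 0.43 and 0.34 ± 0.39.

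Mitochondrial ribosomal RNA, which comes from the same DNA and is no member, was measured beside them. The sum of mt-Rnr1 and mt-Rnr2 ran from 5055 to 6623 scaled CPM in WT spleen and from 2767 to 3116 in WT mLN, and from 4662 to 5499 in KO spleen and from 2162 to 2668 in KO mLN. It was lower in every mLN sample than in every spleen sample, unlike the sum of the messenger RNAs of the same genome. Its part in the other values was not tested.

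**Figure D5:**
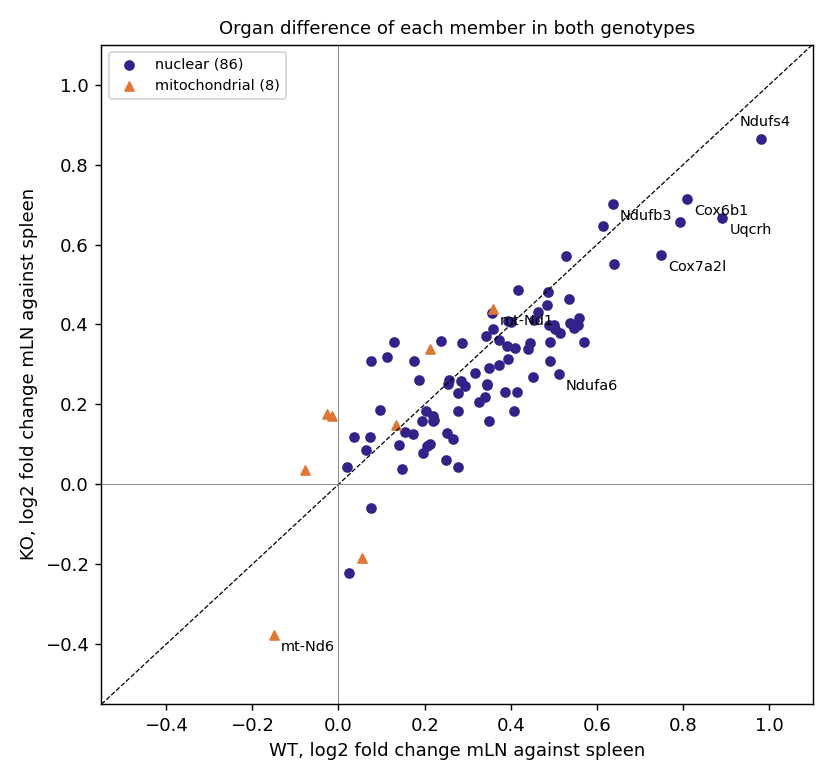
Log2 fold change of mLN against spleen for each of the 94 members tested, in WT (x axis) and KO (y axis), with the line of equality dashed. Most nuclear members lie in the upper right, and Ndufs4 lies furthest out, at 0.98 in WT and 0.86 in KO.

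Side by side, the organ difference in KO was smaller than in WT for 66 of the 94 members, while the interaction called none of them and had a median of -0.05 over the members against -0.01 over all genes. The interaction lay below 0 for 66 of the 96 members and for 7869 of the 15438 genes in that fit. Uqcrh had an interaction of -0.22 ± 0.13, Cox6b1 of -0.09 ± 0.12, Ndufs4 of -0.11 ± 0.16 and Cox7a2l of -0.17 ± 0.10 on the log2 scale, each with an adjusted p of 0.9998. The members called higher in 1 genotype were 9 in WT and 4 in KO. These last were Ndufaf3, Atp5f1, Uqcrc1 and mt-Nd1, of which the first 3 are named after their values were seen.

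Other genes that the chain depends on were read from 3 lists that hold no member and 76 genes in all, 75 of them tested. Of 39 assembly factors tested beyond the Ndufaf genes, 7 (17.9%) were higher and 1 lower in WT mLN relative to spleen. In KO 10 (25.6%) were higher and 0 lower, and the median log2 fold changes were 0.27 in WT and 0.23 in KO. Over all genes tested, 9.7% were called higher and 10.8% lower in WT, and 11.8% and 13.7% in KO. Surf1 measured 41.1, 39.2, 44.2 and 39.3 scaled CPM in the WT spleen samples, 36.01, 39.1, 39.5 and 37.5 in KO spleen, 76.4, 77.7 and 78.8 in WT mLN and 95.2, 74.3, 80.05 and 78.5 in KO mLN. Surf1, an assembly factor of complex IV, was higher by a log2 fold change of 0.91 ± 0.08 (SE) in WT with an adjusted p of 2.61e-04 and of 1.09 ± 0.10 in KO with an adjusted p of 1.64e-05. Uqcc3, an assembly factor of complex III, was higher by 0.49 and 0.52 with adjusted p of 0.006 and 0.0016. Sdhaf4, an assembly factor of complex II, was higher in KO by 0.52 with an adjusted p of 0.0047. Cox10, which makes the heme of complex IV, was higher in WT by 0.66 with an adjusted p of 0.013.

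Between the genotypes, 1 of these 39 assembly factors was called lower in KO in each organ, Sdhaf1 in spleen and Cox10 in mLN. Over all genes tested, 0.751% were called lower in spleen and 0.292% in mLN. For both genes every KO value lay below every WT value in both organs, as it did for 6.13% of all genes in spleen and 7.37% in mLN. Sdhaf1, which helps to mature the iron-sulfur subunit of complex II, measured 33.7, 36.9, 54.3 and 42.7 scaled CPM in WT spleen and 21.2, 18.04, 25.4 and 20.4 in KO spleen, a log2 fold change of -0.98 ± 0.16 with an adjusted p of 0.032. In mLN it measured 35.3, 56.9 and 47.1 in the WT samples and 28.8, 22.1, 23.7 and 25.9 in KO, again without overlap. Cox10 measured 72.2, 73.3 and 96.8 in WT mLN and 47.3, 53.9, 43.9 and 38.6 in KO mLN, a log2 fold change of -0.81 ± 0.15 with an adjusted p of 0.041. In spleen Cox10 measured 51.4, 46.9, 43.2 and 61.05 in WT and 36.2, 36.9, 36.5 and 34.8 in KO. The Cox10 call did not hold when any 1 sample was left out (adjusted p from 0.052 to 0.15), and the Sdhaf1 call was lost without WT spleen replicate 2 or 4 or KO spleen replicate 1, 2 or 4 (0.019 to 0.10 over all samples left out).

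Of the 22 genes for the upkeep and transcription of mitochondrial DNA, 1 (4.55%) was higher and 2 were lower in mLN in each genotype. Over all genes tested, 9.7% were called higher and 10.8% lower in WT, and 11.8% and 13.7% in KO. Polg measured 93.7, 100.3, 94.3 and 88.5 scaled CPM in the WT spleen samples, 96.3, 99.1, 76.3 and 69.2 in KO spleen, 50.9, 66.3 and 58.3 in WT mLN and 57.7, 60.9, 66.9 and 61.4 in KO mLN. Polg, the polymerase that copies mitochondrial DNA, was lower in mLN by a log2 fold change of -0.70 ± 0.11 in WT with an adjusted p of 0.0026 and -0.48 ± 0.12 in KO with an adjusted p of 0.013. Polrmt, the polymerase that transcribes it, measured 38.7, 46.7, 41.2 and 33.6 scaled CPM in WT spleen and 24.4, 25.5 and 13.4 in WT mLN, a log2 fold change of -0.93 ± 0.21 with an adjusted p of 0.016, and had one of -0.54 ± 0.16 in KO with an adjusted p of 0.03. With the trend on length and GC content taken out, both KO calls were lost, Polg at -0.15 with an adjusted p of 0.34 and Polrmt at -0.22 with one of 0.32, and in the fit over all 15 samples Polrmt in KO had an adjusted p of 0.055. The higher ones were Tefm, its elongation factor, in WT (0.53, adjusted p 0.044) and Mtpap, which adds poly(A) tails, in KO (0.37, adjusted p 0.02). Of the 14 genes for electron carriers and ubiquinone synthesis, 1 was higher in each genotype, Coq9 in WT (0.48, adjusted p 0.023) and Coq7 in KO (0.63, adjusted p 0.029). This share of 7.14% is below the shares of all genes called higher. No gene of these last 2 lists was called between KO and WT. Several calls of the lists were close to the limit. That of Tefm was lost without any 1 sample other than WT spleen replicate 4 (adjusted p from 0.056 to 0.11 where lost), and with the trend on length and GC content taken out (0.098) or no filter on low counts (0.079). That of Coq9 was lost without WT spleen replicate 2 or 3 or WT mLN replicate 1 or 2 (0.056 to 0.085), that of Coq7 without KO spleen replicate 1, 2 or 4 or KO mLN replicate 1 or 4 (0.052 to 0.093) or with no filter on low counts (0.087), that of Mtpap without KO spleen replicate 2, 3 or 4 or KO mLN replicate 2 (0.051 to 0.067) and that of Polrmt in KO without KO spleen replicate 1, 2 or 4 (0.053 to 0.092).

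The nuclear members are spread over 19 chromosomes, and their promoters were searched for 3 motifs that are known from genes of this class. For 76 nuclear members, RefSeq (GRCm38.p6) gave a promoter of 250 bases before to 50 after the start. The palindrome of NRF1, GCGCATGCGC, stood in 7 of them (9.21%), against 1.07% of all 27025 promoters in the table. The ETS core CGGAAG, bound by factors such as GABP, stood in 33 (43.4%) against 18.8%, and the YY1 core GATGGC in 18 (23.7%) against 15.9%, each on either strand. Promoters of 3 members are printed 5′ to 3′ on the strand of the gene with the motif letters of either strand in capitals. Those of Cox6b1 and Ndufs4 belong to members with large organ differences, and that of Cox6a1 holds all 3 motifs. The positions are Cox6b1, chr7:30626065-30626364, minus strand, Ndufs4, chr13:114388045-114388344, minus strand and Cox6a1, chr5:115348909-115349208, minus strand.
Cox6b1: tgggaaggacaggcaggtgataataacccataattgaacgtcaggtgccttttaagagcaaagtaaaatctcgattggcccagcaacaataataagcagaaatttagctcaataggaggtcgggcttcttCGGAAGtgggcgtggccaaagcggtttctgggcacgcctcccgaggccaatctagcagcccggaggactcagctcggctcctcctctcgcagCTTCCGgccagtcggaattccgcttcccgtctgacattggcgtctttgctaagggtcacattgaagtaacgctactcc
Ndufs4: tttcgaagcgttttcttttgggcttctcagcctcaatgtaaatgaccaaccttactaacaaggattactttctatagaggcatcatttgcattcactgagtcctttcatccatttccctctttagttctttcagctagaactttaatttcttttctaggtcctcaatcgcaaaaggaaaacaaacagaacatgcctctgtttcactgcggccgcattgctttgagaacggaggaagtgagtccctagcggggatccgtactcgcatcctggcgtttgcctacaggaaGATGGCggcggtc
Cox6a1: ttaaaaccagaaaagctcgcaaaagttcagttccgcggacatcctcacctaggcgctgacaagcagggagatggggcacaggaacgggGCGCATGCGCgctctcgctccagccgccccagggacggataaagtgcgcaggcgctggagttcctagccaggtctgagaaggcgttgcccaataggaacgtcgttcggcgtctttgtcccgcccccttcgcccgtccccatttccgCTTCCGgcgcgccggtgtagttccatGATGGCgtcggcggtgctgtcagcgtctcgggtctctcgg
The Cox6b1 promoter held the ETS core at 2 places, that of Ndufs4 the YY1 core once, and that of Cox6a1 each motif once. Among the 72 matched promoters of tested members, 20 of 33 with the ETS core and 22 of 39 without it belonged to members called higher in mLN in WT, with median log2 fold changes of 0.37 and 0.34. With the NRF1 palindrome it was 4 of 7 and without it 38 of 65, and with the YY1 core 8 of 17 and without it 34 of 55. In KO it was 20 of 33 with the ETS core and 16 of 39 without it, with medians of 0.36 and 0.25. For the NRF1 palindrome it was 5 of 7 and 31 of 65 in KO, and for the YY1 core 9 of 17 and 27 of 55. These differences were not tested. A motif is a match of letters in this window and says nothing about binding.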

How the data were processed

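CD4+ T cells of 15 samples were sequenced with the NEBNext Single Cell/Low Input kit in single-end reads of 75 bases. The authors aligned them with STAR 2.6.1a to GRCm38 (GENCODE M23) and deposited raw counts of reads per gene, and the submitters' processing notes also name bcl2fastq 2.19.1.403, RSEM and DESeq2 1.22.2. Multimapping reads were not counted, and 58.4% to 63.4% of uniquely aligned reads were assigned to no gene. As reads appear to have been counted by strand, this share includes reads that lay on the other strand of a gene. The rows that name no gene (67.4% to 70.3% of reads) stayed out of library sizes and tests.

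Of 55421 gene IDs, 55240 were matched to GENCODE M21 on the same build for symbols, exons and lengths. Members and lists were chosen with earlier results of these data known. edgeR 4.0.16 (R 4.3.3) fitted each comparison on its own groups, with its filter on low counts, TMM scaling and the quasi-likelihood test, and p-values were adjusted by Benjamini-Hochberg over all genes tested (limit 0.05, no limit on the fold). The interaction was fitted over all 15 samples. Sums and ratios carry no test and are given with the pooled SD. Samples of a group differed by more than counting noise. Named are the mitochondrial members, catalytic and central subunits, isoform pairs, the members with the smallest p (up to 10 per direction, or 3 where fewer pass), the 5 highest and 3 lowest per length, and up to 3 genes per list of other genes.

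Deviations of same-numbered WT spleen and mLN samples correlated at 0.24 to 0.29 over genes, so the numbers were taken to pair these samples, as read from the data and not from the labels. In KO the range was 0.03 to 0.26 for equal numbers (median 0.11) and -0.17 to 0.10 for unlike numbers (median -0.041). These ranges overlap, so in KO the numbers were not taken to pair samples, though the values do not settle it. Between genotypes the range for equal numbers was -0.21 to 0.15, and there they were not taken as pairs either. The main fits use no pairing in either genotype. Alternatives were other scalings, filters, DESeq2 1.42.0, the block, a fold limit and leaving out each sample, and removal of trends on length and GC content was added after the data were seen. The fits were tested on simulated counts. Python 3.11.15, numpy 2.4.6, pandas 2.3.3 and matplotlib 3.10.9 were used for the other steps.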

Additional observations from a re-analysis of the deposited data

Results flagged for a closer look

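Among 123 checks of a group of 4 samples for 1 stray value (41 measures in 3 groups), 9 were past Dixon's critical value, where chance flags about 1 in 20. KO mLN replicate 1 stood apart in 4 of them: Ndufs1 at 167 scaled CPM against 109 to 112 in the other samples of its group, Atp5c1 at 483 against 401 to 413, Atp5s at 13.8 against 7.09 to 8.11, and Atp5l, lower at 17.7 against 20.5 to 20.9. WT spleen replicate 4 was high for mt-Nd1 at 1123 against 708 to 767 and for mt-Nd6 at 236 against 145 to 156. The others were Atp5s in KO spleen replicate 2 at 7.93 against 7.10 to 7.13, Sdhc in KO spleen replicate 3 at 80.2 against 70.8 to 72.1, and Ndufab1 in WT spleen replicate 3 at 29.3 against 27.5 to 27.7.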

How the results depend on the processing

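Between KO and WT, the count of 0 members called changed in few settings. With no filter on low counts, 2 members were called in spleen (mt-Nd1 and Ndufa4), where 4.03% of genes were, and 2 in mLN (mt-Nd5 and mt-Nd6), where 2.71% were. DESeq2 called 2 in mLN (1.67% of genes) and the fit over all 15 samples 1 (3.24%), and leaving out 1 sample called 0 to 1 in spleen and 0 in mLN. Between the organs, a limit of 1 on the absolute log2 fold change left 0 members in WT and 0 in KO, and leaving out 1 sample gave 40 to 52 in WT and 34 to 51 in KO.

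With the median level over members (of log2 scaled CPM) in each sample in place of the sum, the mitochondrial difference was -0.22 between KO and WT in mLN and -0.0617 between the organs in KO, and the mitochondrial to nuclear ratio -0.19 and -0.35. This is a difference of medians, not the median of the genes' fold changes. When 1 sample was left out, differences between KO and WT in mLN crossed 0 for the mitochondrial sum (-0.10 to 0.057), the nuclear sum (-0.041 to 0.022) and the ratio (-0.10 to 0.043), as did the mitochondrial sum between the organs in WT (-0.0086 to 0.21). Single members named here that changed sign were mitochondrial genes compared between the organs in WT, none past the limit. With the trend on length and GC content removed, mt-Nd2 was at 0.12, mt-Nd4 at 0.066 and mt-Nd6 at 0.058, and with the replicate block in addition at 0.16, 0.082 and 0.081. Leaving out 1 sample, mt-Cytb ranged from -0.13 to 0.073, mt-Nd2 from -0.16 to 0.23, mt-Nd3 from -0.044 to 0.41, mt-Nd4 from -0.20 to 0.080, mt-Nd5 from -0.087 to 0.22 and mt-Nd6 from -0.35 to 0.043. The cause was not tested.

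With the replicate number as a block, 64 members were called higher between the organs in WT (14.6% of genes), and 50 were called higher and 1 lower in KO (12.1% and 15% of genes), where the numbers were not taken to pair the samples. The block called 0 members between KO and WT in spleen and 0 in mLN.

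The limits are the 3 to 4 samples of a group and the mitochondrial genes that could not be counted. Others are the nuclear members that share windows with other genes, and counting by strand of reads from a kit that does not mark it. DESeq2 gave no adjusted p for some genes, which could not be called. They stay in the totals behind its shares, which are over all genes with a read. The shares with no filter on low counts are over the same genes. Both kinds of share are thus not on the scale of those from the filtered fits.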
